A study of Mus musculus with 2 samples.

Results

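The dual-specificity phosphatases (DUSP), regulators of G protein signalling (RGS), Sprouty and Spred proteins and non-receptor tyrosine phosphatases (PTPN) were examined for binding of PPARγ, a ligand-activated nuclear receptor, in mouse TH2 cells. The members were 48 named genes: 12 DUSP, 19 RGS, 7 Sprouty and Spred and 10 PTPN genes. A peak was counted for a gene when that gene had the nearest protein-coding transcription start site (TSS) within 100 kb of the peak centre. Of the 2537 peaks, 22 belonged to 13 of these genes. Of the 48, 47 were found on a chromosome among the protein-coding genes of the annotation used. The gene Spry3 was not among them and was not analysed here.

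The ChIP group was TH2 cells differentiated in culture from naive CD4+ T cells (strain C57BL/6J) that carried a retroviral vector expressing TY1-tagged Pparg, and it consisted of 1 library made with an antibody against the TY1 tag. The input group was 1 library from the same kind of transduced cells without antibody. Transduction took place on days 1 and 2 and harvest on day 4, so both libraries hold the introduced receptor and the map describes that receptor rather than the endogenous one. Per the file header the ChIP library held 10229438 tags, of which 0.53% lay in peaks, and there was no replicate of either library. The file lists positions without a strength, every peak had the same weight, and the TH2 label could not be checked against expressed markers.

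Most proteins of these 4 families act as brakes on signals that reach T cells from receptors at the surface. DUSP enzymes of the MAP kinase phosphatase type remove phosphate from the tyrosine and the threonine of MAP kinases and so switch off ERK, p38 or JNK. RGS proteins speed up GTP hydrolysis by G protein alpha subunits and thereby end signals of chemokine receptors. Sprouty and Spred proteins restrain the RAS to ERK route, and PTPN enzymes remove phosphate from tyrosines of receptors, JAK kinases, STAT factors and adaptors. PPARγ binds DNA together with RXR at the element called DR1, in which AGGTCA occurs as a direct repeat around a spacer of 1 bp.

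DR1 matches were found at 3 of the 22 peaks, allowing up to 2 mismatches in the 12 fixed bases of the repeat. They are shown in the reading direction of the repeat, with the bases that match the consensus in capitals, because PPARγ is known to bind DR1. All 3 differ from the consensus, and a match does not show that PPARγ binds at these letters.
Dusp6: AGGgCAaAGGTCA
Ptpn1: gGGgCAaAGGTCA
Dusp16: AGGTtAaAGGTtA
Positions are counted from 1 at the 5′ end of the repeat. The Dusp6 match differed from the consensus by T4G, the Ptpn1 match by A1G and T4G, and the Dusp16 match by C5T and C12T. The downstream core was complete at Dusp6 and Ptpn1, and the spacer base was adenine in all 3 matches. They were centred 17 bp, 7 bp and 27 bp from the peak centre at Dusp6, Ptpn1 and Dusp16.

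The peaks of Dusp6 and Ptpn1 that hold these matches have the following mm10 sequence on the plus strand, with the DR1 match in capitals. They are shown because each had the fewest DR1 mismatches of its family. The Dusp6 match reads on the minus strand.
Dusp6, chr10:99222142-99222314: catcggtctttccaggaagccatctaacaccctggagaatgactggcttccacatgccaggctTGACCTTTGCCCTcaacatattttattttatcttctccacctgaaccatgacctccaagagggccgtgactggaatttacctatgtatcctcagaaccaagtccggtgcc
Ptpn1, chr2:167856991-167857163: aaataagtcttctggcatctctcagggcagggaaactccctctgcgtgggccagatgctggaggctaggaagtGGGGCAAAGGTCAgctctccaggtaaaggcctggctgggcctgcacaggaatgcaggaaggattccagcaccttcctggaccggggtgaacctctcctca
The peaks of Rgs1 and Dusp10 are shown for the site of AP-1, the FOS and JUN factors induced by T cell activation, searched as TGACTCA or TGAGTCA on both strands and in capitals here.
Rgs1, chr1:144239094-144239266: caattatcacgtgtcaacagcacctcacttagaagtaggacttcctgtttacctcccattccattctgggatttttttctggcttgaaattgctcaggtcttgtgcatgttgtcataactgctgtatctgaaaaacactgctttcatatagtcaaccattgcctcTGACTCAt
Dusp10, chr1:184085069-184085241: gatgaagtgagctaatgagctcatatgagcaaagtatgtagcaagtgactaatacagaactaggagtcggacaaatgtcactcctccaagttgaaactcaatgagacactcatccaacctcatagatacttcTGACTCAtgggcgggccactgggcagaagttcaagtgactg
The other peak with an AP-1 match, 14997 bp upstream of Dusp22, had its match outside the 173 bp of the peak but inside the 200 bp window searched. With a window of 100 bp around the centre, 0 peaks of the listed genes had an AP-1 match, against 9.18% of all assigned peaks. The Ptpn4 peak is shown because it lay within 1 kb of a TSS and held neither element.
Ptpn4, chr1:119836032-119836204: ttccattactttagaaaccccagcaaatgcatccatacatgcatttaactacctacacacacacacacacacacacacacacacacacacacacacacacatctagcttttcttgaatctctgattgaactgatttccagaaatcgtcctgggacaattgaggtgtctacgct

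The first comparison asked how often each family had a peak. In the list as a whole 13 of 47 genes (27.7%, exact 95% binomial interval 15.6 to 42.6) had an assigned peak, while over all 21851 protein-coding genes the share was 7.68%. DUSP genes had the highest share at 6 of 12 (50.0%, interval 21.1 to 78.9), followed by PTPN genes at 4 of 10 (40.0%, interval 12.2 to 73.8). Sprouty and Spred genes had 1 of 6 (16.7%, interval 0.421 to 64.1) and RGS genes 2 of 19 (10.5%, interval 1.3 to 33.1). The order of the first 2 families depended on the rule: PTPN genes had the higher share within 10 kb (2 of 10, against 1 of 12 DUSP genes), with noncoding genes also allowed as the nearest gene (2 of 10, against 2 of 12) and with peaks in repeats left out (4 of 10, against 4 of 12). The intervals of the 4 families overlapped, and those of DUSP and PTPN genes lay above the share over all genes, whereas those of the other families took it in. Intervals cover counting error over genes, not the spread between cultures. No test was made of these counts, since the list was drawn up with earlier results of the same peaks known.

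The listed genes also had more sequence around them. The territory of a gene, the sequence within 100 kb for which it has the nearest TSS, had a median of 113 kb for the listed genes and 47.3 kb for all protein-coding genes. Counted per Mb of territory, the listed genes had 4.09 peaks and all protein-coding genes 1.36. The DUSP genes had 7.94 peaks per Mb, the PTPN genes 6.22, the RGS genes 2.19 and the Sprouty and Spred genes 1.2. The peak numbers of DUSP, PTPN and RGS genes were 9, 7 and 5. Within 10 kb the order of the first 2 turned, with 4.26 peaks per Mb for DUSP genes (1 peak) and 14.0 for PTPN genes (3 peaks). The single peak of the Sprouty and Spred family put it near the level of all genes.

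**Figure D1:**
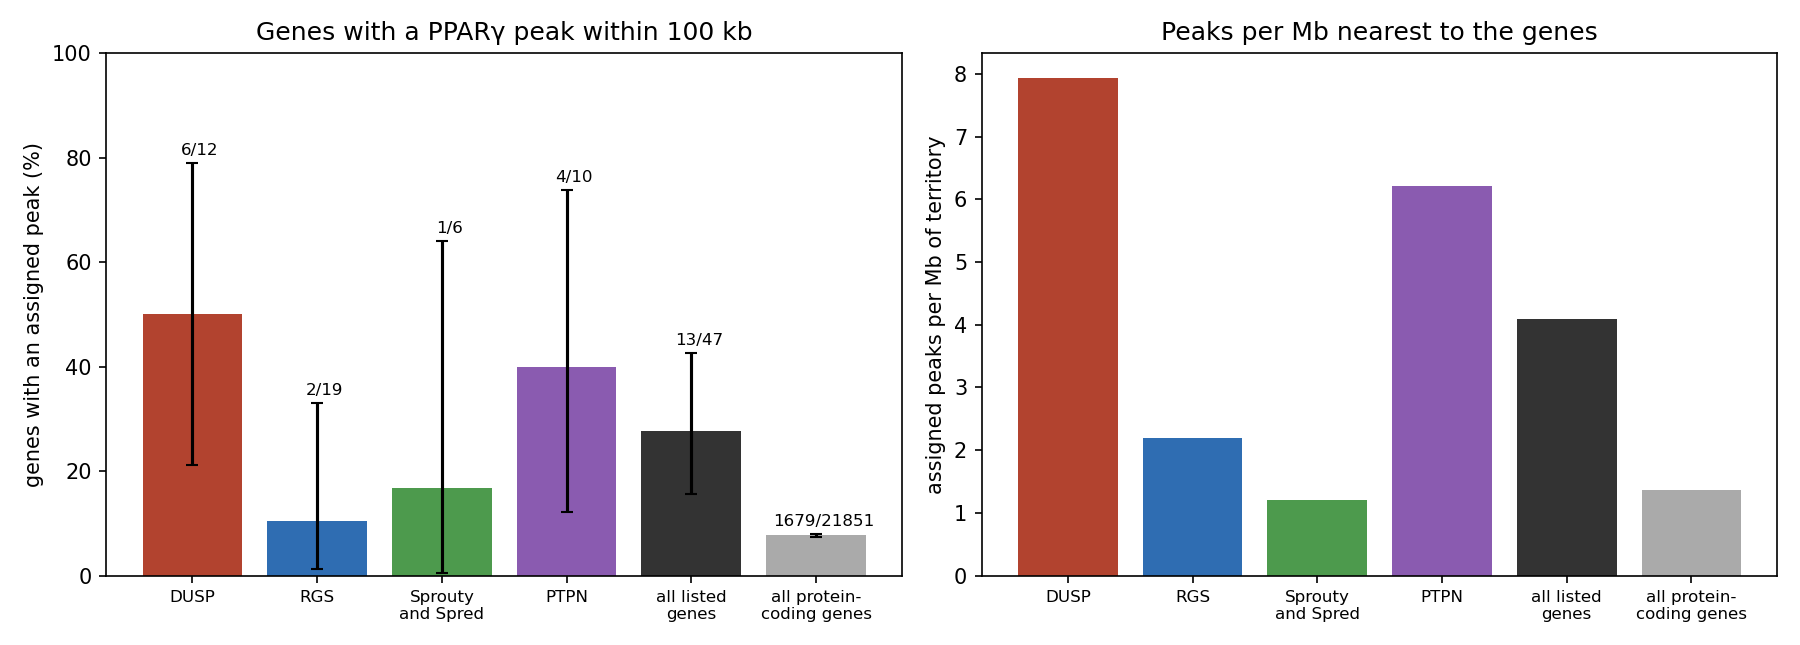
Left, percent of genes with an assigned PPARγ peak in each family, in all listed genes and in all protein-coding genes, with exact 95% binomial intervals as bars and the counts above them. Right, assigned peaks per Mb of territory. DUSP (50.0%) and PTPN (40.0%) genes stood above RGS (10.5%) and Sprouty and Spred (16.7%) genes, and all protein-coding genes were at 7.68%.

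Most of the 22 peaks lay far from the start sites of protein-coding genes. With noncoding genes also allowed as the nearest gene, only 9 of the 22 stayed with a listed gene. The others lay nearer to another TSS, such as a Dusp6 peak at 0.838 kb and a Ptpn1 peak at 1.51 kb. Peaks of Dusp16 (1 of them at 2.58 kb), Dusp4, Dusp5, Rgs8, Ptpn13 and Rgs1 were also among these. The listed genes had larger territories (median 113 kb, against 47.3 kb for all protein-coding genes), and distances were not adjusted for this. The median distance of the 22 peaks to the protein-coding TSS was 36.2 kb, against 16.4 kb for all 2124 assigned peaks. Of the 22, 5 (22.7%) lay within 10 kb, against 38.1% of all assigned peaks. With that shorter limit 4 of the 47 genes had a peak, and over all protein-coding genes 3.38% did. Upstream and downstream sides had 11 peaks each (50.0% upstream), and 44.5% of all assigned peaks were upstream. By location, 11 peaks (50.0%) were intergenic and 10 (45.5%) intronic, against 31.9% and 55.2% of all assigned peaks. A single peak lay in a promoter, meaning the stretch from 1000 bp before to 100 bp after a TSS (4.55%, against 9.04%), and none lay in an exon, where all assigned peaks had 3.91%. Repeat-masked sequence held the centres of 6 peaks (27.3%), against 16.2% of all assigned peaks, and 4 of these 6 belonged to DUSP genes.

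**Figure D2:**
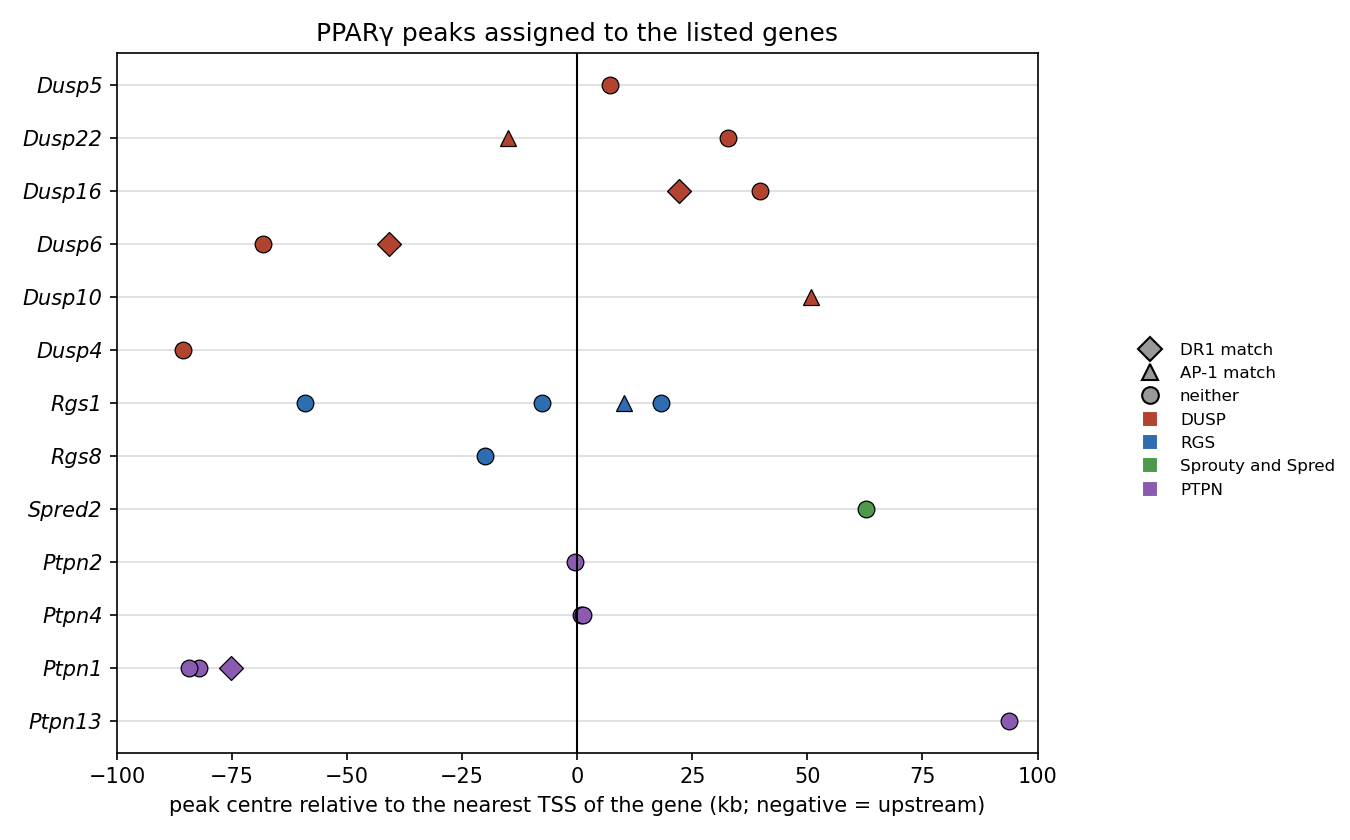
Position of each of the 22 peak centres relative to the nearest TSS of its gene, in kb, with negative values upstream; colours mark the family, diamonds a DR1 match and triangles an AP-1 match. Ptpn2 and Ptpn4 have peaks within 1.29 kb of the TSS, whereas the 3 Ptpn1 peaks lie 75.2 to 84.4 kb upstream.

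The 6 DUSP genes with a peak are described first, by the kinase their product acts on. Dusp5, which encodes a nuclear phosphatase of ERK, had 1 intronic peak 7.12 kb downstream of its TSS (chr19:53536143-53536315), the closest in the DUSP family. Dusp6, which encodes a cytoplasmic phosphatase of ERK, had 2 peaks upstream, at 41.0 and 68.4 kb. The nearer one (chr10:99222142-99222314) held the DR1 match printed above and lay in an intron of the noncoding gene Gm34574. The TSS of Gm34574 was 0.838 kb from this peak, so Dusp6 is the nearest gene only among protein-coding genes. The farther one (chr10:99194749-99194921) lay in an intron of the neighbouring gene Poc1b, and the TSS of another gene, Phxr2, was 68.5 kb away. Both Dusp6 peaks were centred in repeat-masked sequence. Dusp4, which encodes a nuclear phosphatase of ERK and related kinases, had 1 intergenic peak 85.8 kb upstream, also centred in repeat-masked sequence.

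Dusp10, which encodes a phosphatase of p38 and JNK, had 1 intergenic peak 50.8 kb downstream of its TSS with an AP-1 match, and 1700056E22Rik, the next protein-coding gene, was about as near at 51.2 kb. Dusp16, which encodes a phosphatase of JNK and p38, had 2 peaks in its own introns at 22.0 and 39.7 kb. The nearer of them held the DR1 match (chr6:134769208-134769380) and was centred in repeat-masked sequence. Dusp22, the gene of a small phosphatase that acts on LCK in T cells, had 2 peaks that lay on both sides of the TSS. The upstream one was at 14997 bp and intergenic, and the other was intronic at 32.8 kb, with Irf4, a transcription factor gene of activated lymphocytes, as the next gene at 56.3 kb.

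The other 6 DUSP genes had no assigned peak, and they include genes of phosphatases that act on the same kinases. Dusp1, the immediate early gene of a phosphatase of p38, JNK and ERK, has 3 annotated TSSs. The nearest of them was 43.4 kb from a peak that was assigned to Ergic1, at 4.16 kb. For Dusp8, Dusp2, Dusp14 and Dusp7 the nearest peaks were 404, 553, 790 and 896 kb away. The nearest peak to the X-linked gene Dusp9 was 16462 kb away. Dusp7 and Dusp9 encode cytoplasmic phosphatases of ERK, as Dusp6 does, Dusp2 a nuclear phosphatase of ERK, and Dusp8 a phosphatase of JNK and p38. Peaks were thus present at some genes for ERK phosphatases and at some for p38 and JNK phosphatases, and absent from others of both kinds.

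Binding in the RGS family was concentrated at 1 gene. Rgs1, which encodes a B and T cell regulator of chemokine receptor signalling, had 4 of the family's 5 peaks, all intergenic. They lay 7.73 and 59.1 kb upstream and 10.1 and 18.1 kb downstream of its TSS. The peak 10.1 kb downstream held the AP-1 match printed above and was centred in repeat-masked sequence. Of the 47 listed genes 2, Rgs1 and Ptpn1, had 3 or more peaks (4.26%), and the share over all protein-coding genes was 0.357%. Leaving out Rgs1 leaves 1 RGS gene with a peak, Rgs8, which had 1 intergenic peak 20018 bp upstream (chr1:153632921-153633093).

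Rgs1 lies in a cluster of RGS genes on chromosome 1. On the side of its 3′ end come Rgs13 and Rgs2, and on the side of its 5′ end Rgs21 and Rgs18. Among protein-coding genes, all peaks between Rgs2 and Rgs18 were nearest to Rgs1. With genes of every type, the peak 59.1 kb upstream was nearest to Gm7266 (4.05 kb) and that 18.1 kb downstream to Rbm6-ps2 (7.47 kb). Rgs13, Rgs2 and Rgs18, the neighbours of Rgs1, had no assigned peak. Their nearest peaks, at 53.7, 227 and 467 kb, were all among the 4 assigned to Rgs1. A peak assigned to Rgs1 by distance is thus not shown to act on Rgs1.

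**Figure D3:**
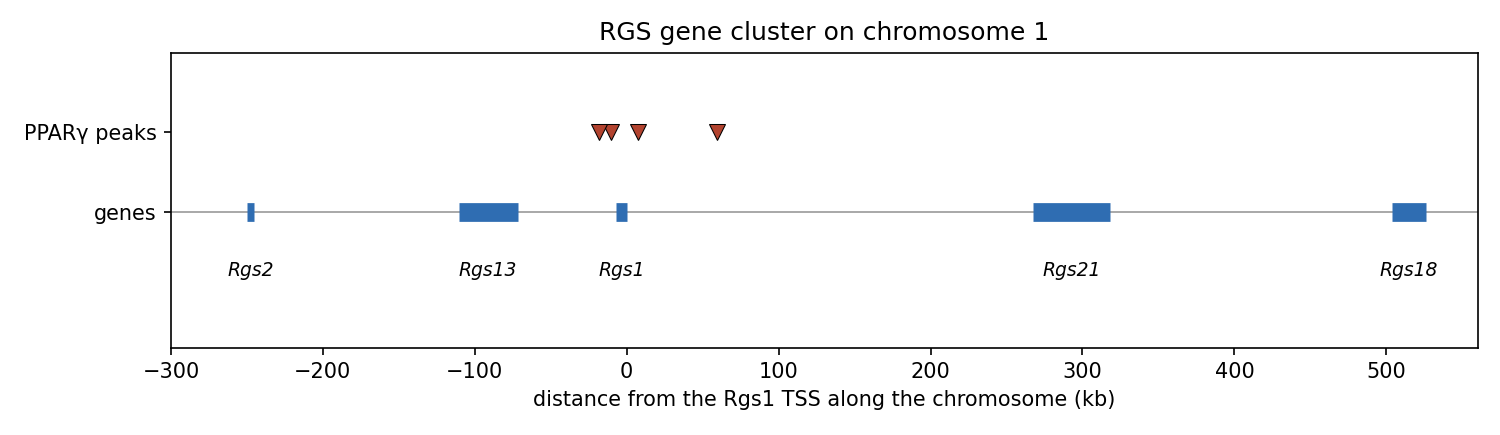
Protein-coding genes (bars) and PPARγ peaks (triangles) of the RGS cluster on chromosome 1, with the distance from the Rgs1 TSS in kb on the x axis. The 4 peaks lie between 18.1 kb on the 3′ side and 59.1 kb on the 5′ side of Rgs1, and the other RGS genes of the cluster have none.

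Another 17 RGS genes had no assigned peak, Rgs13, Rgs2 and Rgs18 among them. Rgs16, whose product is induced in activated T cells, had a peak 9.55 kb from its TSS, but this peak was nearer to the TSS of another gene and was not assigned to Rgs16. Rgs10 had a peak at 56.0 kb that was assigned to Tial1. The body of Rgs20 held a peak 105 kb from the Rgs20 TSS that was nearer to Tcea1. Rgs17 and Rgs3 had their nearest peaks at 122 and 150 kb. Nearest peaks lay between 221 and 592 kb for Rgs4, Rgs5, Rgs6, Rgs11 and Rgs19. For Rgs12, Rgs9, Rgs7 and Rgs14 they lay between 820 and 1860 kb. Rgs7 and Rgs9 are known from neurons and retina.

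Among Sprouty and Spred genes, Spred2, which encodes a membrane-bound inhibitor of RAS to ERK signalling, had the single peak. It was intronic, 62.8 kb downstream of the TSS (chr11:19987176-19987348), with neither a DR1 nor an AP-1 match. Spred1 had its nearest peak at 142 kb. For Spred3, Spry1, Spry4 and Spry2 the nearest peaks were 475, 732, 791 and 1401 kb away.

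The PTPN family held the peaks closest to start sites of protein-coding genes. Ptpn2, which encodes a phosphatase of JAK1, JAK3 and STAT factors that limits cytokine signals in T cells, had a promoter peak 431 bp upstream of its TSS. Ptpn4 had 2 peaks in its own introns at 881 and 1289 bp from the TSS, 408 bp apart, and the caller required at least 344 bp between peaks. The peak at 881 bp was centred in repeat-masked sequence and held a run of CA dinucleotides of 47 bp in its 200 bp window. The other 21 peaks had runs of at most 7 bp, and 3.15% of all assigned peaks had a run of 20 bp or more. Whether the repeat affects the call of this peak was not tested. Without this peak Ptpn4 still had the peak at 1289 bp.

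The remaining PTPN peaks were distant. Ptpn1, which encodes PTP1B, a phosphatase of the insulin and leptin receptors and of JAK2, had 3 intergenic peaks 75.2, 82.2 and 84.4 kb upstream. Their centres were 6.98 and 2.18 kb apart from one to the next. The peak at 75.2 kb held the DR1 match printed above. The noncoding gene Gm14319 had the nearest TSS of any type to all 3, at 1.51, 8.49 and 10.7 kb, and the next protein-coding genes, Ripor3 and Cebpb, were 154 to 161 kb away. Ptpn13, which encodes a large phosphatase with PDZ domains, had an intronic peak at 93.9 kb, and the next protein-coding TSS, of Slc10a6, was 110 kb away. Without an assigned peak were Ptpn9, Ptpn12, Ptpn3, Ptpn7, Ptpn11 and Ptpn14, with nearest peaks at 233, 329, 424, 432, 476 and 1489 kb. Ptpn11 encodes SHP2, which promotes RAS to ERK signalling, and Ptpn7 encodes a lymphoid phosphatase of ERK and p38.

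**Figure D4:**
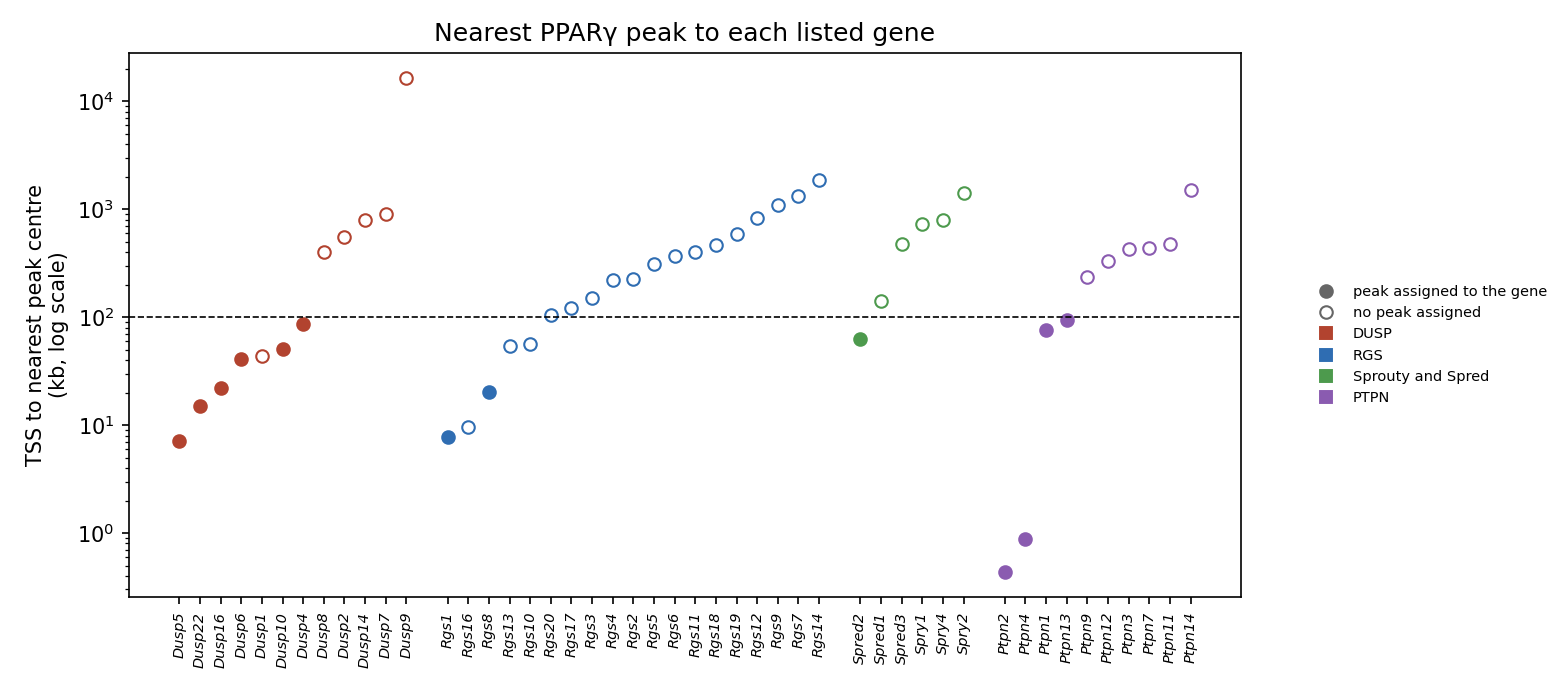
Distance from each of the 47 listed genes to the nearest peak centre, in kb on a log scale, by family. For genes with several TSSs the nearest one was used. Filled points had a peak assigned and open points had none, and the dashed line marks 100 kb. Rgs16 (9.55 kb), Dusp1 (43.4 kb), Rgs13 (53.7 kb) and Rgs10 (56.0 kb) lie under the line without an assigned peak.

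The limit of 100 kb divided a few peaks. Just inside it were the Ptpn13 peak at 93.9 kb, the Dusp4 peak at 85.8 kb and the Ptpn1 peak at 84.4 kb. Outside it, further peaks had a listed gene as the nearest protein-coding TSS at 135 kb (Dusp4), 197 kb (Dusp6) and 226 kb (Dusp10). All 3 of those genes already had an assigned peak.

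Motif matches were counted in 200 bp windows around the peak centres. DR1 matches occurred in 3 of 22 peaks (13.6%, exact 95% interval 2.91 to 34.9), against 20.6% of all assigned peaks. AP-1 matches occurred in 3 of 22 (13.6%), against 17.8%, and 16 of 22 peaks held neither (72.7%), against 64.7%. The DR1 matches were at DUSP (2 of 9) and PTPN genes (1 of 7), and none of the 5 RGS peaks had one. The single core AGGTCA occurred in 5 of 22 peaks (22.7%), against 28.4%. Intervals of the listed genes took in the share of all assigned peaks for DR1, AP-1 and the single core.

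Matches to TTCNNNGAA, the palindrome recognised by STAT factors, were present in 6 of 22 peaks (27.3%, interval 10.7 to 50.2), against 9.46% of all assigned peaks. The 22 peaks come from 13 genes, and the interval treats peaks of 1 gene as independent, which they are not. STAT factors carry signals of the cytokine receptors on which TH2 cells depend. DUSP genes had 4 of these 6 peaks, and Rgs1 and Ptpn2 had 1 each. Of the 4 DUSP peaks 3, the Dusp4 peak and both Dusp6 peaks, were centred in repeat-masked sequence. Outside repeats 3 of 16 peaks of the listed genes held a match (18.8%, interval 4.05 to 45.6), against 9.78% of all assigned peaks there, and that interval took in the share of all assigned peaks. The matches at DUSP and RGS genes are shown with the fixed bases in capitals, since they recur at 3 DUSP genes. The plus strand is given.
Dusp22, 14997 bp upstream: TTCaatGAA
Dusp4, 85.8 kb upstream: TTCtagGAA
Dusp6, 41.0 kb upstream: TTCcagGAA
Dusp6, 68.4 kb upstream: TTCaaaGAA
Rgs1, 18.1 kb downstream: TTCtagGAA
The matches at Dusp22 and at the farther Dusp6 peak were 3 and 11 bp from the peak centre, and the others were 29 to 78 bp away. The nearer Dusp6 peak held both a DR1 and a STAT match.

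Sites of other T cell factors were also searched on both strands. GATA sites, the letters GATA with A or T before and A or G after them, occurred in 11 of 22 peaks (50.0%, interval 28.2 to 71.8), against 37.0% of all assigned peaks. RUNX sites (TGTGGT) occurred in 3 of 22 (13.6%), against 18.8%. ETS sites (CCGGAA) occurred in 2 of 22 (9.09%, interval 1.12 to 29.2), against 2.78%, at Ptpn2 and Ptpn13. The intervals for GATA and ETS sites took in the share of all assigned peaks. The CRE site TGACGTCA was in none of the 22 windows, and 0.0942% of all assigned peaks held it. A match describes the letters in the window and does not show that the factor binds there.

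**Figure D5:**
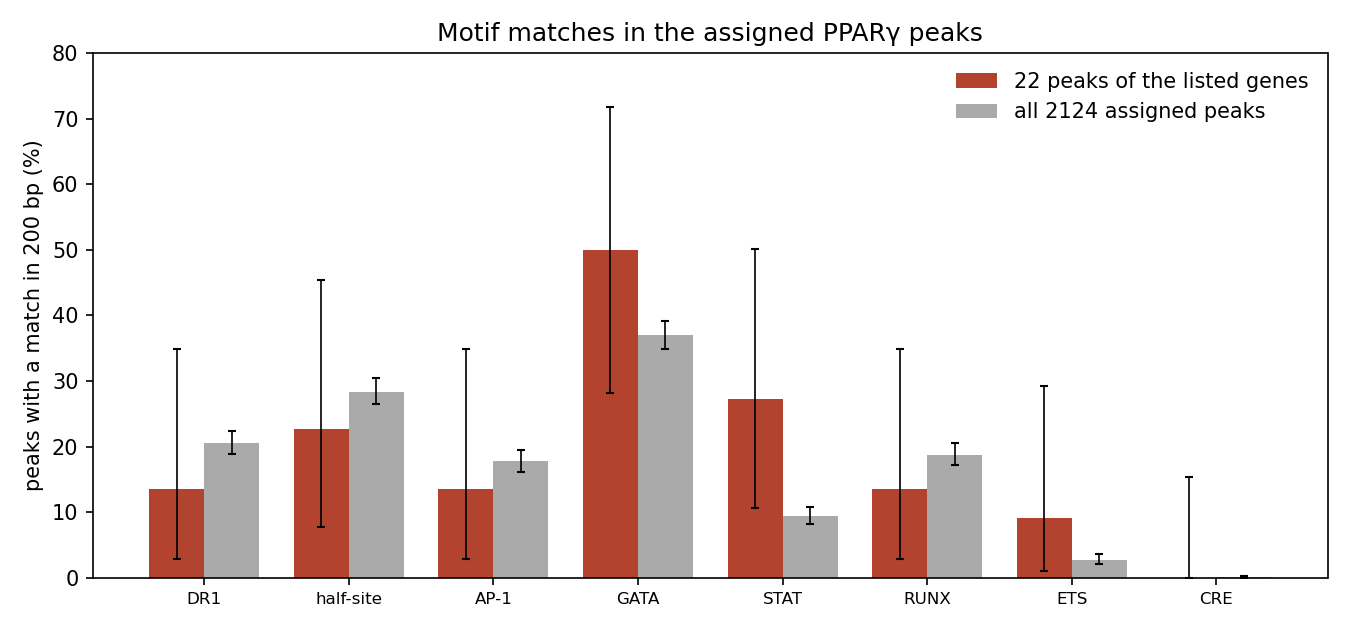
Percent of peaks with a motif match in 200 bp around the centre, for the 22 peaks of the listed genes and for all 2124 assigned peaks, with exact 95% binomial intervals as bars (half-site, the single AGGTCA core). STAT matches were at 27.3% against 9.46% (18.8% against 9.78% outside repeats), and DR1 matches at 13.6% against 20.6%.

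Peaks of the listed genes lay close to another peak in 7 of 22 cases (31.8%), counting any peak within 10 kb, against 17.4% of all assigned peaks. These 7 were the 3 Ptpn1 peaks, the 2 Ptpn4 peaks and the 2 Rgs1 peaks downstream of the gene, so they come from 3 loci and are not independent of one another. The median GC content of the 200 bp windows was 41.8% for the listed genes and 43.5% for all assigned peaks.

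Genes that act next to these proteins were examined through 8 lists of kinases, RAS pathway genes, G protein subunits, receptor phosphatases and further family members, 90 genes of which 89 matched the annotation. Of the 89, 10 had an assigned peak (11.2%, interval 5.52 to 19.7), against 7.68% of all protein-coding genes, and they had 1.39 peaks per Mb of territory. That pooled value hides a spread between the lists: RAS and RAF genes had 5.12 peaks per Mb, above the 4.09 of the listed genes, while receptor phosphatase genes had 0.267 over 3.75 of the 9.33 Mb. The other 6 lists ranged between 0.0 and 2.35 peaks per Mb. The 11 other DUSP genes (interval 0.0 to 28.5%) and the 6 other genes of RGS proteins and their partners (interval 0.0 to 45.9%) had none. Both intervals took in the share of all protein-coding genes. The other DUSP genes had a median territory of 22.1 kb, against 92.6 kb for the listed DUSP genes. MAP kinase genes had 2 of 13, among them Mapk14, which encodes p38α, with an intronic peak at 5.79 kb. Of the MAP2K genes 1 of 7 had a peak, Map2k6, which encodes a kinase that activates p38, in its promoter at 236 bp. RAS and RAF genes had 3 of 13: Braf at 10959 bp, Rras2 with 3 peaks, the nearest at 24.7 kb, and Rasgrp1 with 2 peaks, the nearer at 28.6 kb with a DR1 match. G protein alpha subunit genes had 2 of 13, Gnaq at 29.4 kb with a DR1 match and Gna12 at 39.9 kb. Ptpn5 was the only other PTPN gene with a peak (1 of 7, at 16.3 kb), and Ptpre the only receptor phosphatase gene (1 of 19, at 25.7 kb).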

How the data were processed

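Chromatin from TH2 cells expressing TY1-tagged PPARγ gave 1 ChIP library and 1 input library. Per the labels' protocols and the submitters' processing notes the authors aligned single-end reads to mm10 with Bowtie2 and called peaks with HOMER, whose versions are not given in the sources used here. Peaks were called with a false discovery rate of 0.001, at least 8 tags and 4-fold over the input with a Poisson p of 1e-04, per the file header. The input removed 682 of 3239 putative peaks, so regions of high background are missing. The score deposited by the authors is 1 in every row, as the 15 columns of its header became 6 in the rows, so it ranks no peak.

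Peaks are 173 bp long and their coordinates count from 1. Genes came from the GENCODE vM21 basic annotation of GRCm38, the assembly mm10 names, with all TSSs of protein-coding transcripts. Peak sequence and repeat masking were read from the GRCm38.p6 assembly. Motif searches covered both strands of the 200 bp around each centre. Binomial intervals are exact (Clopper-Pearson, 95%) and cover counting error only. Those over peaks treat peaks of 1 gene as independent, although they share a locus.

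The members and lists were chosen with earlier results of these data known, so counts are given beside those over all genes or peaks, with no p-value. Every listed gene is named, and of the other lists up to 5 genes each, by the peak nearest to the TSS. A few genes that this rule names are not reported here. Sequences shown are the peaks with the fewest DR1 mismatches per family, those within 1 kb of a TSS and up to 3 with AP-1, leaving out chromosome 18. Alternatives covered the distance limit, start sites, gene types, gene bodies, subsets of the file, repeats, motif settings and class definitions. Functions for assignment and motif search were tested on simulated data. Analyses used Python 3.11.15, numpy 2.4.6, pandas 2.3.3, scipy 1.17.1, pysam 0.24.0 and matplotlib 3.10.9.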

Additional observations from a re-analysis of the deposited data

How the results depend on the processing

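The counts depended on how far a peak may lie from a gene. Within 10 kb, 4 listed genes kept a peak (5 peaks), namely 1 DUSP gene, 1 RGS gene and 2 PTPN genes with 1, 1 and 3 peaks and 0 Sprouty and Spred genes (0 peaks), while 3.38% of all protein-coding genes kept one; peaks per Mb were 4.26 for DUSP, 14.0 for PTPN and 0.0 for Sprouty and Spred genes. Within 50 kb 8 listed genes kept a peak (13 peaks), and 6.76% of all protein-coding genes did. Of PTPN 2 genes with 3 peaks remained, and of Sprouty and Spred 0 with 0 peaks. The median distance at this limit was 15.0 kb for the listed genes, against 11.6 kb for all assigned peaks. Peaks per Mb were 3.69 for PTPN genes, 0.0 for Sprouty and Spred genes and 1.52 for all protein-coding genes. With noncoding genes also allowed as the nearest gene, 6 genes and 9 peaks remained (DUSP 2 genes and 3 peaks, RGS 1 and 2, PTPN 2 and 3), while 4.84% of protein-coding genes had a peak. The first 1268 rows of the file gave 7 genes and 9 peaks (DUSP 3 and 3, PTPN 2 and 3, Sprouty and Spred 0 and 0, RGS 3 peaks). From those rows 4.33% of all protein-coding genes had a peak. The other 1269 rows gave 11 genes and 13 peaks (RGS 1 gene and 2 peaks, PTPN 4 peaks), and 4.19% of all protein-coding genes had one. Outside repeats 11 listed genes had a peak, and 6.59% of all protein-coding genes did. DUSP genes had 5 peaks there, Dusp4 and Dusp6 had none, and STAT matches were in 3 peaks, a count added after seeing the data. The share of PTPN genes with a peak was above that of DUSP genes in 3 of 10 alternatives, namely within 10 kb, with noncoding genes and outside repeats. Starts of gene records alone exchanged Dusp10 for Dusp1, gene bodies added Rgs20, and the comprehensive annotation, an alternative chosen after seeing the data, dropped Dusp6. DR1 matches were in 1 of the 22 peaks with up to 1 mismatch (6.83% of all assigned peaks) and in 0 with none (1.18%). AP-1 matches were in 0 of the 22 in 100 bp (9.18% of all assigned peaks) and in 13 with up to 1 mismatch (63.1%). With wider promoters 2 peaks were promoter peaks. Of 158 alternative values, 99 stayed within 1.5-fold of the main value or equal to it. No paired analysis was possible because there was 1 ChIP library. Depth per peak is unknown, so a gene without a peak is not shown to be unbound.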
